A study of Mus musculus with 96 samples.

Results

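The genes described here are chemokines and a chemokine receptor measured in the mouse brain after traumatic brain injury (TBI). They were taken by name, with earlier results of these data known, as Ccl2, Ccl3, Ccl4, Ccl5, Ccl6, Ccl9, Ccl12, Cxcl16 and Ccr1, which makes 9 of the 32594 genes in the count tables. All 9 were listed in the tables of both time points, 8 as ligands and 1 as a receptor.

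Chemokines are small secreted proteins that steer leukocytes along a concentration gradient by binding G protein-coupled receptors on the cell surface. Ccl2 and Ccl12 act on Ccr2 and draw monocytes into tissue, Ccl3, Ccl4 and Ccl5 draw macrophages and T cells, Ccl3 and Ccl5 in part through Ccr1, and Ccl6 and Ccl9 are rodent ligands of Ccr1 made by myeloid cells. Cxcl16 is a membrane-anchored chemokine that is also a scavenger receptor and binds Cxcr6. In the injured brain microglia, astrocytes and infiltrating monocytes are known sources of such ligands.

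Male C57BL/6 mice of 8 to 10 weeks were given a controlled cortical impact over the left hemisphere, with craniectomy, or a sham procedure of anesthesia and scalp excision without craniectomy. From 6 h after injury they were given candesartan (CD), an angiotensin II type 1 receptor blocker, at 0.1 mg/kg/day, or vehicle (VH). The ipsilateral hippocampus, thalamus or hypothalamus was taken, after perfusion with saline, on day 3 or day 29 post-injury (dpi), and polyadenylated RNA was sequenced. Each region and time held 4 libraries of each of 4 groups, which were Sham + VH and Sham + CD, TBI + VH and TBI + CD, and this gives 96 libraries. Mice of the 3 dpi cohort were injected intraperitoneally at 6, 24 and 48 h, whereas those of the 29 dpi cohort were injected at 6 h and carried an osmotic pump from 24 h, so that time, cohort and route cannot be told apart. Sham mice had no craniectomy, so the impact and the bone opening cannot be told apart either. The libraries of a group were chosen for RNA quality, and p-values measure the spread between these libraries.

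Library totals ranged from 6663629 to 38589791 counts, with a median of 24708356, and the shallowest was a Sham + CD library of the hippocampus at 29 dpi. Among 144 pairs of libraries within groups, 0 were identical and the chi-square per degree of freedom of their counts was 2.64 or more. Summed markers of the hippocampus ranged from 365 to 692 counts scaled to library size (CPM) in hippocampal libraries and from 116 to 211 CPM in the other regions, and summed thalamic markers from 1384 to 2724 CPM in thalamic libraries and from 58.8 to 562 CPM elsewhere. Summed hypothalamic markers ranged from 853 to 1817 CPM in hypothalamic libraries and reached 685 CPM in the thalamus. Choroid plexus markers stood apart in the hippocampus at 3 dpi: they summed to 4365, 4667 and 6723 CPM in 3 Sham + VH libraries, to 2703 CPM in TBI + CD replicate 1, and to between 27.2 and 210 CPM in the other 12. They were also uneven in the hippocampus at 29 dpi (59.5 to 7519 CPM) and reached 3502 and 3918 CPM in Sham + VH thalamus at 3 and 29 dpi, whereas they were at most 272 CPM in the hypothalamus.

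These genes were rare transcripts, and the depth set which of them could be tested. Over all 96 libraries the counts summed to 4738 for Cxcl16, 3634 for Ccl9, 3192 for Ccl6, 1044 for Ccl12, 589 for Ccr1, 393 for Ccl2, 377 for Ccl4, 221 for Ccl5 and 79 for Ccl3. Ccl3 had at most 5 counts in any library and was at 0 in 53. Ccl6, Ccl9 and Cxcl16 passed the filter on low counts in all 6 combinations of region and time. Ccl4 passed it in the hippocampus at both times, Ccl12 in the hippocampus and thalamus at 3 dpi, Ccl2 and Ccr1 in the hippocampus at 3 dpi, and Ccl3 and Ccl5 in none. Ccl2, Ccl4, Ccl12 and Ccr1 passed only where injured libraries carried counts, so the number of tested genes that changed is a description and lends no support of its own.

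In the GRCm38 assembly with GENCODE vM21 annotation, 8 of the 9 genes lie on chromosome 11 and Ccr1 lies on chromosome 9. Ccl2 (82035571 to 82037453, plus strand) and Ccl12 (82101845 to 82103400, plus strand) lie in one part of the CC cluster. Ccl5 (83525778 to 83530518, minus strand), Ccl9 (83572919 to 83578636, minus strand), Ccl6 (83587882 to 83593087, minus strand), Ccl3 (83647844 to 83649355, minus strand) and Ccl4 (83662584 to 83664683, plus strand) follow in a second part. Cxcl16 (70453983 to 70459984, minus strand) lies apart from both, and Ccr1 spans 123962124 to 123968692 on the minus strand. Exons of Cxcl16 overlap Zmynd15 on the opposite strand, and 478 of its 3102 distinct stretches of 75 bases, the read length, are also found there. How strand was used in counting is not given in the sources used here, so reads of Cxcl16 and Zmynd15 may not be told apart over that stretch. Ccl2 and Ccl6 also overlap an opposite-strand gene model, Gm17268 and E230016K23Rik respectively, but share no stretch of 75 exonic bases with another gene.

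The 250 bases upstream of the start site are shown for Ccl12, Ccl6, Ccl9 and Ccr1, which moved together in the hippocampus at 3 dpi and had an entry among the RefSeq promoters of GRCm38.p6. The windows are chr11:82101595-82101844 (plus strand) for Ccl12, chr11:83593088-83593337 (minus strand) for Ccl6, chr11:83578637-83578886 (minus strand) for Ccl9 and chr9:123968693-123968942 (minus strand) for Ccr1. Capitals mark matches, on either strand, to the TATA box TATAAA, the AP-1 site TGANTCA, the PU box core GAGGAA or the NF-kB consensus.
Ccl12: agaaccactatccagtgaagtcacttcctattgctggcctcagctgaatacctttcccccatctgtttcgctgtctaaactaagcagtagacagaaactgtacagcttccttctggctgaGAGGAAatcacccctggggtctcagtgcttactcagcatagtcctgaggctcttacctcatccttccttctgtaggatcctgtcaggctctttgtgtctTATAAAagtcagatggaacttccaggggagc
Ccl6: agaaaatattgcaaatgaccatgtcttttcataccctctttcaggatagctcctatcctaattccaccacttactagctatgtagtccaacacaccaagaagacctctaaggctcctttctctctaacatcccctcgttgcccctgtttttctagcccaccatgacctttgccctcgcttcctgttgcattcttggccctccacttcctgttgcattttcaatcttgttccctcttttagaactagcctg
Ccl9: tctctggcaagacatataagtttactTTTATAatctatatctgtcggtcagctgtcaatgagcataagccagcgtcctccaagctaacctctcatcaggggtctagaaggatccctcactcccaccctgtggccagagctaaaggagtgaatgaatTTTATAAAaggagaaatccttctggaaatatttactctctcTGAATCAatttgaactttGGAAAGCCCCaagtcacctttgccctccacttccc
Ccr1: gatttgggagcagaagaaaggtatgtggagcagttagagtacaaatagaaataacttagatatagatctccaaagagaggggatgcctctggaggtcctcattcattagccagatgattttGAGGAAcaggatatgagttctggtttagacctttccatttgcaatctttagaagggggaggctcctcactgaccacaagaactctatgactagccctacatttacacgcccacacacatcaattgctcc
Ccl12 had TATAAA from -31 to -26 relative to the start site and GAGGAA from -130 to -125. Ccl9 had TATAAA from -92 to -87, overlapped by a minus-strand match from -94 to -89, with another minus-strand match from -224 to -219, TGAATCA from -53 to -47 and an NF-kB match on the minus strand from -35 to -26. Ccr1 had GAGGAA from -129 to -124, and Ccl6 had none of the 4. Of 32851 promoters of the same length, TATAAA was found in 12.4%, TGANTCA in 6.75%, GAGGAA in 23.3% and the NF-kB consensus in 5.93%. A match describes these letters and is neither a binding site nor a cause, and no match says only that the letters are not in this window. Ccl3 had an entry whose start differed from that of its transcript and is not shown, and Ccl2, Ccl4, Ccl5 and Cxcl16 are named only.

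In the hippocampus at 3 dpi, all 7 tested genes were higher after injury in vehicle-treated mice, from 3.20-fold for Ccl9 to 12.7-fold for Ccl12. The same 7 rose in candesartan-treated mice, from 3.68-fold for Ccl9 to 23.2-fold for Ccl2, a value that TBI + CD replicate 3 raised, with a still higher value for Ccl4 that rested on 2 sham counts. A gene was called changed at an edgeR adjusted p under 0.05 with an absolute log2 fold change above 0.32. By that rule 7 of 7 genes were called higher in TBI + VH against Sham + VH, where 8.99% of all 16756 genes tested were, and 7 of 7 in TBI + CD against Sham + CD, where 14.4% were. The median log2 fold change of the 7 was 2.42 and 2.79, beside -0.01 and -0.0024 over all genes tested. In bulk tissue a change in the number of cells of a type and a change in RNA per cell cannot be told apart.

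Ccl12, a ligand of Ccr2, had the largest fold change in vehicle-treated mice. It measured 0.0798, 0.0832, 0.205 and 0.256 CPM in the Sham + VH libraries and 2.12, 1.76, 2.96 and 1.40 CPM in the TBI + VH libraries. With candesartan it measured 0.0912, 0.241, 0.248 and 0.0426 CPM after sham and 3.82, 0.907, 4.93 and 4.13 CPM after TBI. Every injured library lay above every sham library, and TBI + CD replicate 2 lay well below the other 3 of its group. The log2 fold change was 3.67 ± 0.55 (SE, adjusted p = 0.000137) with vehicle and 4.43 ± 0.54 (adjusted p = 1.13e-05) with candesartan.

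Ccl2, the main chemoattractant of monocytes, rested on fewer counts, 62 in the TBI + VH libraries against 9 in the Sham + VH libraries. Its levels were 0.0798, 0.0416, 0.0820 and 0.146 CPM in Sham + VH and 0.625, 0.604, 0.975 and 0.295 CPM in TBI + VH. They were 0.0456, 0.0401, 0.0496 and 0.0852 CPM in Sham + CD and 0.746, 0.473, 3.29 and 1.0 CPM in TBI + CD, where replicate 3 was over 3 times as high as the next. Sham and injured libraries did not overlap with either treatment. Ccl2 rose by a log2 fold change of 2.75 ± 0.71 (adjusted p = 0.0137) with vehicle and 4.54 ± 0.72 (adjusted p = 0.00015) with candesartan. Without TBI + VH replicate 3 the vehicle value was 2.43 and was no longer called (adjusted p = 0.0565), and without TBI + CD replicate 3 the candesartan value was 3.64 (adjusted p = 0.000111). With a score for the choroid plexus markers in the model the vehicle value was 1.79 and was not called (adjusted p = 0.355).

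Ccl4, a chemoattractant of macrophages and T cells, was close to 0 in sham mice. It measured 0.0798, 0.0832, 0.123 and 0.0366 CPM in Sham + VH, and 0.791, 0.302, 0.686 and 0.405 CPM in TBI + VH. Of the Sham + CD libraries only replicate 4 held any reads, 2 counts or 0.0852 CPM, whereas the TBI + CD libraries measured 0.839, 0.316, 1.24 and 0.681 CPM. Injured libraries were higher throughout, with a log2 fold change of 2.72 ± 0.59 (adjusted p = 0.00372) with vehicle, which was 2.45 and not called with the choroid plexus score (adjusted p = 0.105). In candesartan-treated mice 77 counts stood against 2, a pooled ratio of 35.1 (95% exact interval 9.41 to 295, counting error only), and the fitted log2 fold change was 4.84 ± 0.72 (adjusted p = 7.89e-05). It was called each time a library was left out, but its size moved from 4.45 to 7.24, since the 2 sham counts lay in 1 library.

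Ccl3 and Ccl5, both ligands of Ccr1, were not tested across genes. Ccl5 had 0, 2, 2 and 0 counts in Sham + VH and 6, 2, 16 and 8 in TBI + VH, a pooled ratio of 8.17 (95% exact interval 2.90 to 31.8). It was not counted in any Sham + CD library and had 8, 4, 7 and 14 counts in TBI + CD, at least 10.04-fold higher against a floor of 3 counts over the group. Both comparisons gave an exact two-sided permutation p of 0.0286, the smallest that 4 against 4 libraries allow, and 0.0381 when adjusted over the 4 tests of Ccl3 and Ccl5. Ccl3 had 0, 0, 3 and 0 counts in Sham + VH and 4, 0, 1 and 4 in TBI + VH, with a pooled ratio of 3.06 (0.765 to 17.6; exact permutation p = 0.257). It was at 0 in all Sham + CD libraries and had 1, 1, 1 and 3 counts in TBI + CD, at least 1.83-fold higher (exact permutation p = 0.0286, adjusted 0.0381). When no filter on low counts was used, edgeR called Ccl5 in both arms (adjusted p = 0.0223 and 0.000936) and Ccl3 in neither (0.491 and 0.115).

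Ccl6 and Ccl9, ligands of Ccr1, had over 10 counts in 90 and 91 of the 96 libraries. Ccl6 was 0.678, 1.54, 0.984 and 1.13 CPM in Sham + VH and 5.41, 2.42, 4.33 and 3.83 CPM in TBI + VH. With candesartan it was 0.821, 0.882, 0.644 and 0.554 CPM after sham and 3.68, 3.51, 5.30 and 4.05 CPM after TBI. Its lowest injured library, TBI + VH replicate 2, still lay above the highest sham library. The log2 fold change was 1.89 ± 0.26 (adjusted p = 5.27e-05) with vehicle and 2.50 ± 0.27 (adjusted p = 3.32e-06) with candesartan.

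Ccl9 was 1.24, 0.998, 1.76 and 1.50 CPM in Sham + VH and 5.58, 3.27, 5.13 and 3.65 CPM in TBI + VH. It was 1.14, 1.48, 1.29 and 1.45 CPM in Sham + CD and 4.19, 3.87, 6.80 and 4.93 CPM in TBI + CD. The groups were again apart, with a log2 fold change of 1.68 ± 0.22 (adjusted p = 4.54e-05) and 1.88 ± 0.23 (adjusted p = 9.58e-06).

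Cxcl16 gave the smallest adjusted p of the 7. It was 1.04, 0.873, 0.861 and 1.24 CPM in Sham + VH and 6.41, 3.42, 7.12 and 4.57 CPM in TBI + VH. With candesartan the sham libraries were close together at 0.821, 0.842, 0.843 and 0.852 CPM, and the injured libraries were 4.85, 3.75, 5.96 and 7.33 CPM. All injured libraries were more than 2-fold above all sham libraries. The log2 fold change was 2.42 ± 0.24 (adjusted p = 2.61e-06) with vehicle and 2.70 ± 0.25 (adjusted p = 8.02e-07) with candesartan.

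Ccr1, a receptor for Ccl3, Ccl5, Ccl6 and Ccl9 on myeloid cells, was called higher in both arms. It was 0.200, 0.0416, 0.246 and 0.0366 CPM in Sham + VH and 0.541, 0.302, 0.975 and 0.958 CPM in TBI + VH. The Sham + CD libraries measured 0.183, 0.0802, 0.198 and 0.0852 CPM and the TBI + CD libraries 0.652, 0.552, 1.64 and 0.922 CPM. The lowest injured library with vehicle, 0.302 CPM, was not far above the highest sham library, 0.246 CPM. The log2 fold change was 2.41 ± 0.55 (adjusted p = 0.00575) with vehicle and 2.79 ± 0.55 (adjusted p = 0.000837) with candesartan. With the choroid plexus score the vehicle value was 1.63 and was not called (adjusted p = 0.268).

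**Figure D1:**
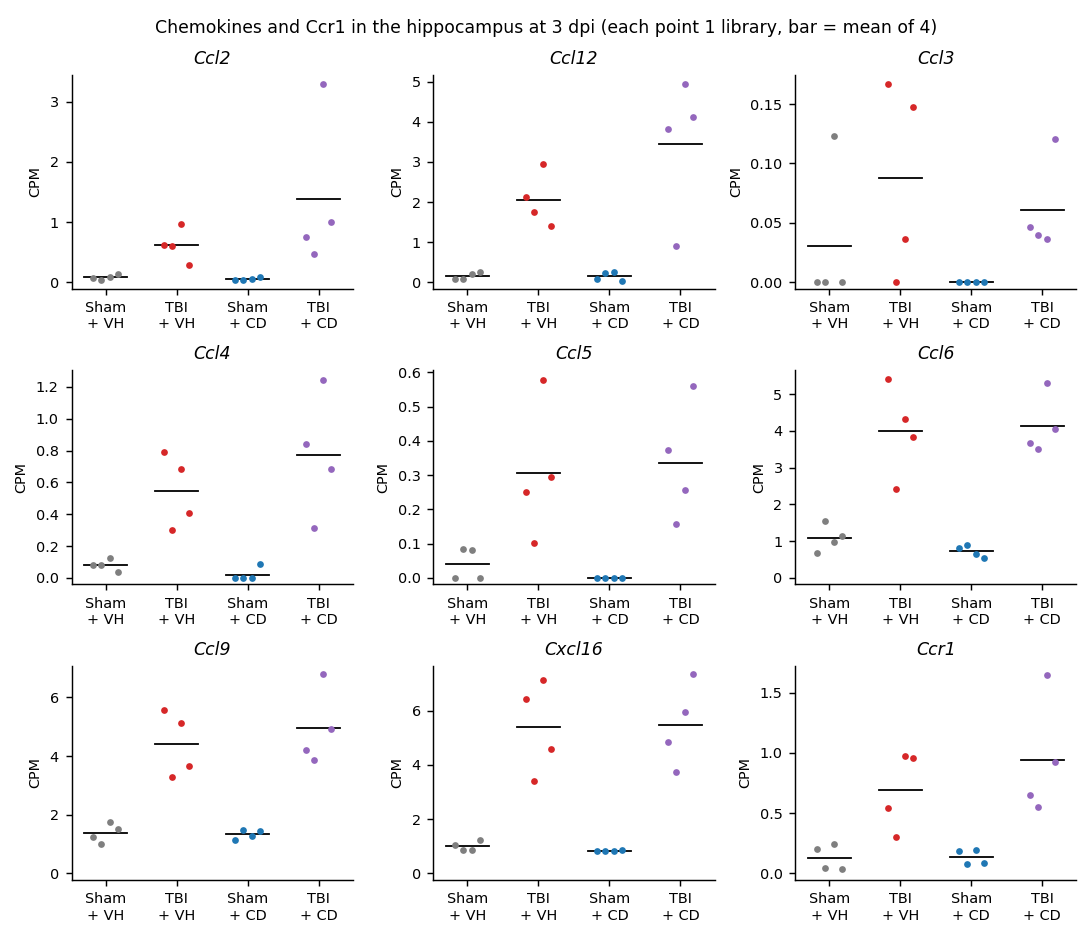
Level in CPM of each of the 9 genes in the hippocampus at 3 dpi, 1 panel per gene with its own axis, where each point is 1 library and the bar is the mean of 4. Injured libraries lie above sham libraries in both treatments for all genes but Ccl3, which overlaps with vehicle. Ccl5 with vehicle runs from 0 to 0.0832 CPM after sham and from 0.101 CPM upward after TBI.

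These genes were also ranked by level per length. Per kilobase of exon, Ccl6 was highest in Sham + VH hippocampus at 3 dpi (0.604 ± 0.199 CPM per kb, SD, n = 4), followed by Ccl9 (0.452 ± 0.108), Cxcl16 (0.332 ± 0.0593) and Ccl12 (0.291 ± 0.165), neighbours whose SDs overlap. Below them stood Ccl4 (0.122 ± 0.0535), Ccl2 (0.0768 ± 0.0382), Ccr1 (0.0462 ± 0.0380), Ccl5 (0.0430 ± 0.0497) and Ccl3 (0.0401 ± 0.0803), the last 3 not apart from each other. In TBI + VH mice Ccl12 had the highest mean at 3.84 ± 1.25 CPM per kb, then Ccl6 at 2.23 ± 0.693, Cxcl16 at 1.78 ± 0.559 and Ccl9 at 1.45 ± 0.368, where the SDs of neighbours again overlap. Ccl4 and Ccl2 came next at 0.827 ± 0.349 and 0.549 ± 0.245 CPM per kb, and Ccl3 remained last at 0.114 ± 0.107. In TBI + CD mice Ccl12 was again first, at 6.42 ± 3.27 CPM per kb.

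Other genes of the chemokine system were read from lists of ligands, receptors and signalling proteins. Of 30 other ligands listed, 12 were tested, and 3 were called higher and 0 lower in TBI + VH hippocampus at 3 dpi, beside 8.99% and 1.72% of all genes. These were Ccl8 (log2 fold change 3.28 ± 0.87), Cxcl10, an interferon-induced ligand of Cxcr3 (2.67 ± 0.79), and Cxcl5, a ligand of Cxcr2 (2.53 ± 0.43). With candesartan the same 3 were called (3.55, 4.40 and 3.29), together with Pf4 (1.11 ± 0.37). The median of the 12 other ligands was -0.01 with vehicle, beside -0.01 over all genes. The neuronal chemokine Cx3cl1, at 615 CPM after sham and 572 CPM after TBI with vehicle, had a log2 fold change of -0.11 ± 0.09.

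Of 23 other chemokine receptors 9 were tested, and 3 were called higher and 0 lower with vehicle (8.99% and 1.72% of all genes), and likewise 3 higher with candesartan (14.4% of all genes). Ccr2, the receptor of Ccl2 and Ccl12, went from 0.0665 CPM to 1.03 CPM with vehicle (log2 fold change 3.81 ± 0.58, adjusted p = 0.000183) and from 0.0767 CPM to 1.48 CPM with candesartan (4.18 ± 0.57, adjusted p = 3.23e-05). Cx3cr1, the microglial receptor of Cx3cl1, went from 43.1 CPM to 99.8 CPM with vehicle (1.21 ± 0.13). Cxcr6, the receptor of Cxcl16, was too rare to test, at 0 after sham and 0.0300 CPM after TBI with vehicle. Ccr3, another receptor of Ccl5, was also untested, at 0.0582 CPM and 0.0216 CPM.

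Among 20 signalling proteins downstream of chemokine receptors, all tested, 12 were called higher and 0 lower with vehicle (8.99% and 1.72% of all genes), and 12 higher and 2 lower with candesartan (14.4% and 5.67% of all genes). The median log2 fold change was 1.14 and 1.40. Of those named here after their values were seen, Rac2, the hematopoietic Rac GTPase, had 2.68 ± 0.20 with vehicle, its exchange factors Dock2 and Vav1 had 1.89 ± 0.20 and 2.06 ± 0.24, and the kinase Fgr had 3.18 ± 0.63. Gnai2, the inhibitory G protein subunit to which these receptors couple, had 0.55 ± 0.08. The 2 called lower with candesartan were Gng2 (-0.34 ± 0.08) and Tiam1 (-0.53 ± 0.11), at 244 and 88.2 CPM in TBI + CD.

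Cell type markers moved along with these genes. All 12 microglial markers were called higher with either treatment, and their sum ranged with vehicle from 377 to 409 CPM after sham and from 801 to 1263 CPM after TBI, and with candesartan from 372 to 406 CPM and from 925 to 1358 CPM. Csf1r, the most abundant of them, went from 104 to 268 CPM with vehicle. Of 10 tested monocyte and macrophage markers 4 were called with vehicle and 8 with candesartan, with summed levels of 43.3 to 51.8, 68.4 to 173, 47.9 to 53.6 and 94.4 to 196 CPM in that order of groups. Lyz2 went from 7.10 to 91.3 CPM with vehicle, whereas Itga4 was 34.3 and 32.3 CPM. The microglial list holds Cx3cr1 and the monocyte list Ccr2 and Pf4, which are also on the lists above. The part of these cells in the rise of the chemokines was not tested.

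Neutrophil markers summed to at most 4.93 CPM and T and NK cell markers to at most 3.50 CPM in any hippocampal library at 3 dpi, and Trac and Ncr1 were at 0 in all libraries of Sham + VH and of TBI + VH. S100a8 and S100a9 averaged 0.231 and 0.159 CPM in Sham + VH and 0.211 and 0.283 CPM in the injured group. Of 8 astrocyte markers 6 were called higher with vehicle, Gfap going from 332 to 4093 CPM. Slc1a2, the most abundant of them when averaged over all groups, went from 2588 to 2719 CPM. Also with vehicle, 0 of 8 neuronal and 0 of 6 endothelial markers were called in either direction, and 2 of 8 markers of meninges and fibroblasts were lower. With candesartan 7 astrocyte markers and 2 endothelial markers were called higher, 3 neuronal markers and 1 of meninges and fibroblasts lower, and 1 of 2 tested T and NK cell markers higher. With vehicle, after sham and after TBI, the most abundant genes of these lists averaged 2069 and 1781 CPM (Snap25) and 1716 and 1529 CPM (Slc17a7) for neurons, and 27.7 and 21.3 CPM (Flt1) and 20.9 and 23.6 CPM (Ly6c1) for endothelium. They averaged 181 and 30.5 CPM (Igf2) and 65.2 and 67.5 CPM (Pdgfra) for meninges and fibroblasts, and 1.98 and 1.94 CPM (Lck) and 0.263 and 0.317 CPM (Cd4) for T and NK cells. The TBI + VH library lowest in summed microglial and monocyte markers, replicate 2 with 801 and 68.4 CPM, was also the lowest of its group for all members but Ccl2 and Ccl12. TBI + CD replicate 2, lowest of its group with 925 and 94.4 CPM, was the lowest for 8 of the 9 genes, all but Ccl3.

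All 12 choroid plexus markers were called lower in TBI + VH against Sham + VH, led by Ttr at 54.5 CPM against 3555 CPM and Kl at 18.8 CPM against 138 CPM, the 3 Sham + VH libraries named above being the high ones. When a choroid plexus score was added to the model, 4 of the 7 genes were called with vehicle, Ccl12, Ccl6, Ccl9 and Cxcl16. Ccl2, Ccl4 and Ccr1 were then not called, with the values given above. In this arm 3 Sham + VH libraries were high in these markers and all TBI + VH libraries low, so score and injury cannot be fully told apart. In the candesartan arm, where 7 of the 8 libraries were low in these markers, all 7 genes were called with the score and without it.

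Candesartan in injured mice was compared directly in the hippocampus at 3 dpi, TBI + CD against TBI + VH. edgeR called 0 of 7 genes, DESeq2 also 0, and 0% of all genes tested were called by edgeR. At an unadjusted p under 0.05 there were 732 of 16756 genes tested and 1 of the 7 members. This was Ccl2, with a log2 fold change of 1.15 ± 0.48 (95% interval 0.10 to 2.2, adjusted p = 0.999). It was 0.24 without TBI + CD replicate 3, the library at 3.29 CPM. Ccl12 had 0.74 ± 0.38 (-0.09 to 1.57), Ccl4 0.48 ± 0.41 (-0.41 to 1.37) and Ccr1 0.42 ± 0.41 (-0.48 to 1.32). Nearer to 0 lay Ccl9 at 0.17 ± 0.20 (-0.28 to 0.61), Ccl6 at 0.05 ± 0.23 (-0.45 to 0.54) and Cxcl16 at 0.02 ± 0.21 (-0.44 to 0.48). The groups overlapped for all 7. These intervals leave room for a difference of more than 2-fold for Ccl2, Ccl12, Ccl4 and Ccr1 and of at most about 1.5-fold for Ccl6, Ccl9 and Cxcl16.

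In sham mice candesartan gave 0 called genes of 7 in either direction, where 1.50% of all genes tested were called (DESeq2 also called 0 of 7). Of the 7, 0 reached an unadjusted p under 0.05, beside 2511 of 16756 genes. Ccl6 had a log2 fold change of -0.57 ± 0.30 (adjusted p = 0.391), Ccl4 -1.64 ± 1.07 on 2 counts against 8, and Cxcl16 -0.26 ± 0.29 with all Sham + CD libraries below all Sham + VH libraries. The interaction of candesartan with injury was called for 0 of 7 genes and 0% of all genes, by DESeq2 also for 0. It was 2.12 ± 1.15 for Ccl4 (adjusted p = 0.451), 1.79 ± 1.24 for Ccl2 (0.89 without TBI + CD replicate 3) and 0.61 ± 0.38 for Ccl6. These comparisons share their libraries with the injury comparisons, so the larger fold changes in the candesartan arm are the same data read a second way.

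In the thalamus at 3 dpi, 4 genes were tested and Ccl6 alone was called in vehicle-treated mice (1 of 4, beside 0.298% of all genes called higher). Ccl6 was 0.655, 0.647, 0.705 and 1.10 CPM in Sham + VH and 2.39, 1.76, 1.44 and 1.81 CPM in TBI + VH. The groups did not overlap, and the log2 fold change was 1.24 ± 0.23 (adjusted p = 0.0294). That call was lost in 5 of the 16 fits that each left out a library, Sham + VH replicates 1, 2 and 3 and TBI + VH replicates 1 and 2, with adjusted p between 0.0821 and 0.135 and log2 fold changes from 1.09 to 1.26. It was also lost when only Sham + VH and TBI + VH were fitted (1.23, adjusted p = 0.239). Choroid plexus markers ranged there from 55.4 to 3502 CPM in Sham + VH and from 57.4 to 89.2 CPM in TBI + VH, and their part in the result was not tested. Ccl9 measured 1.19, 0.875, 0.617 and 1.22 CPM in Sham + VH and 2.30, 2.11, 1.55 and 2.19 CPM in TBI + VH. Its libraries did not overlap either, with a log2 fold change of 1.05 ± 0.25 (adjusted p = 0.131; DESeq2 0.0321). Ccl12 had 1.07 ± 0.42 and Cxcl16 0.70 ± 0.26, and neither passed (adjusted p = 0.899 and 0.815).

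With candesartan 0 of the 4 thalamic genes were called by edgeR, beside 0.167% of all genes called higher. DESeq2, whose share over all genes is not given here, called 2. An unadjusted p under 0.05 was found for 4 of 4, and for 1000 of all 16762 genes tested. All 4 had injured libraries above all sham libraries, a description given without the share of all genes that lay apart in this way. The log2 fold changes were 1.96 ± 0.48 for Ccl12 (adjusted p = 0.152), 1.19 ± 0.26 for Ccl9 (0.0975), 1.04 ± 0.23 for Ccl6 (0.109) and 0.75 ± 0.26 for Cxcl16 (0.511). Ccl4 went untested with 22 counts in TBI + VH against 5 in Sham + VH, a pooled ratio of 4.47 (1.65 to 15.1; exact permutation p = 0.0857). Thalamic microglial markers summed with vehicle to between 310 and 366 CPM after sham and between 429 and 569 CPM after TBI. Of the other family genes, Cx3cr1 (0.50 ± 0.08) and the kinase subunit Pik3cg (0.81 ± 0.16) were called in vehicle-treated mice. Candesartan in injured mice, candesartan in sham mice and the interaction each gave 0 of 4 genes, with 0% of all genes called, 0 at an unadjusted p under 0.05 and 0 by DESeq2.

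In the hypothalamus at 3 dpi edgeR called no gene in any of the comparisons, 0% of 16946 tested. Of the 3 members tested, DESeq2 also called 0 in all comparisons. After injury 2 had an unadjusted p under 0.05 with either treatment, beside 577 of the 16946 genes with vehicle and 936 with candesartan. Ccl6 measured 0.709, 0.529, 0.542 and 0.674 CPM in Sham + VH and 1.39, 1.05, 1.52 and 1.41 CPM in TBI + VH. These did not overlap, yet the log2 fold change of 1.12 ± 0.26 had an adjusted p of 1. Ccl9 had 0.89 ± 0.23, also without overlap, and Cxcl16 0.47 ± 0.23. With candesartan the values were 0.63 ± 0.26 for Ccl6, 0.25 ± 0.23 for Ccl9 and 0.66 ± 0.24 for Cxcl16. Ccl4, untested there, had 22 counts in TBI + VH, all in replicates 2, 3 and 4, against 1 in Sham + VH, a ratio of 26.1 (4.22 to 1080; exact permutation p = 0.143). With candesartan it had 20 counts against 4 (ratio 5.84, 1.96 to 23.5; exact permutation p = 0.0286 before any adjustment). Candesartan in injured mice gave 0 of 3 genes at an unadjusted p under 0.05 and the interaction 0 of 3. In sham mice Ccl9 alone fell under it, at 0.56 ± 0.23 with an adjusted p of 1, beside 361 of all genes tested.

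**Figure D2:**
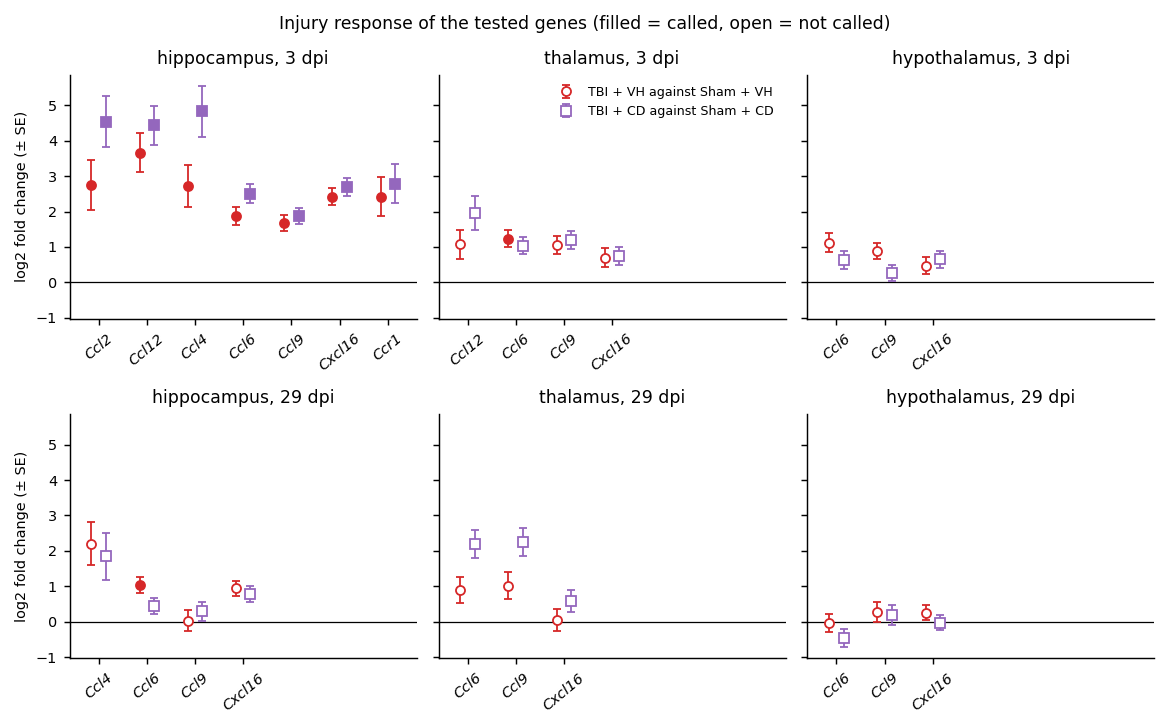
Log2 fold change with injury (± SE) of each tested gene in the 3 regions at 3 and 29 dpi, circles for TBI + VH against Sham + VH and squares for TBI + CD against Sham + CD, filled where called. All 14 symbols of the hippocampus at 3 dpi are filled; elsewhere only Ccl6 with vehicle is, in the thalamus at 3 dpi and the hippocampus at 29 dpi.

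The injury response differed between regions for 2 genes at 3 dpi when tested directly in vehicle-treated mice. Over the 48 libraries of that time, the log2 fold change of Ccl12 was larger in the hippocampus than in the thalamus by 2.57 ± 0.77 (adjusted p = 0.0466) and than in the hypothalamus by 3.14 ± 0.77 (adjusted p = 0.00587). For Cxcl16 the differences were 1.69 ± 0.36 (adjusted p = 0.00213) and 1.93 ± 0.35 (adjusted p = 0.000133). This made 2 of 7 genes called in each, beside 3.51% and 4.92% of all genes called in that direction. For Ccl6 and Ccl9 the differences were 0.62 ± 0.35 and 0.60 ± 0.33 against the thalamus and 0.75 ± 0.36 and 0.78 ± 0.34 against the hypothalamus, none called. The Ccl12 difference from the thalamus was not called in 12 of the 16 fits that each left out a library (2.34 to 2.71, adjusted p at most 0.152), and that from the hypothalamus was 2.45 (adjusted p = 0.0813) without hypothalamic Sham + VH replicate 4. Ccl4 had 0.64 ± 1.30 and -1.33 ± 1.23, with SEs too wide to order the regions. Choroid plexus markers summed to 210 to 6723 CPM in the hippocampal Sham + VH libraries used here and to 27.7 to 171 CPM in TBI + VH. Their part in these differences was not tested. The 2 contrasts share the hippocampal libraries, and regions may share mice, since they were dissected from whole brains. No label ties those of 1 mouse together, and they were treated as independent. With a block for replicate number the Ccl12 difference from the thalamus was 2.55 and not called (edgeR adjusted p = 0.056). Without a filter on low counts it was 2.56 and not called either (0.0614).

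In candesartan-treated mice, a comparison added after the data had been seen, 3 of 7 genes were called against the thalamus (8.02% of all genes) and 5 of 7 against the hypothalamus (9.10%). Ccl2 differed by 3.91 ± 1.28 and 3.70 ± 1.31, Ccl6 by 1.42 ± 0.36 and 1.85 ± 0.37, and Cxcl16 by 1.91 ± 0.36 and 2.01 ± 0.36. Without TBI + CD replicate 3 of the hippocampus, the library at 3.29 CPM, the Ccl2 differences were 3.01 and 2.80 and were not called (adjusted p = 0.0739 and 0.0969). The call of Ccl2 was lost in 6 of 16 fits without a library against the thalamus and in 11 of 16 against the hypothalamus, whereas those of Ccl6 and Cxcl16 held in all 16. Ccl12 differed by 3.23 ± 0.90 from the hypothalamus (adjusted p = 0.00947) and by 2.43 ± 0.89 from the thalamus (adjusted p = 0.058, not called), and the former was 2.88 (adjusted p = 0.0561) without hypothalamic Sham + CD replicate 2. Ccl9 differed by 1.60 ± 0.34 from the hypothalamus only, with 0.65 ± 0.33 against the thalamus.

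Levels in uninjured Sham + VH mice were also compared between regions. At 3 dpi Ccl9 was higher in the hippocampus than in the thalamus by a log2 difference of 0.57 ± 0.24 (adjusted p = 0.0464) and than in the hypothalamus by 1.22 ± 0.25 (adjusted p = 5.33e-05), and higher in the thalamus than in the hypothalamus by 0.65 ± 0.26 (adjusted p = 0.0379). Ccl6 was higher in the hippocampus than in the hypothalamus by 1.01 ± 0.27. These counts, 1, 2 and 1 of 7 genes, stood beside 40.9%, 46.7% and 28.6% of all genes called in either direction. At 29 dpi Ccl12, Ccl9 and Ccr1 were higher in the hippocampus than in the thalamus (1.72 ± 0.68, 0.97 ± 0.34 and 1.90 ± 0.65; 3 of 6 genes, beside 39.3%). Ccl9 was higher in the hippocampus than in the hypothalamus (1.29 ± 0.35; 1 of 6, beside 45.0%), and Ccl12 was lower in the thalamus than in the hypothalamus (-1.65 ± 0.65; 1 of 6, beside 32.9%). The differences in Ccl9 at 3 dpi that involve the thalamus and in Ccl12 at 29 dpi were each lost without any of 4 or 5 of the 8 libraries compared. Those Ccl9 differences were also not called by DESeq2 (adjusted p = 0.063 against the hippocampus, 0.0626 against the hypothalamus) or by edgeR without a filter (0.0612 and 0.0584). With a block for replicate number the one against the hippocampus was lost as well (edgeR adjusted p = 0.0575). The 29 dpi difference of Ccr1 from the thalamus was 1.42 (adjusted p = 0.117) without hippocampal Sham + VH replicate 1, and Ccl12 then had an adjusted p of 0.0528. That of Ccl9 was 0.78 (adjusted p = 0.0629) without hippocampal Sham + VH replicate 2. Cxcl16 did not pass in any of the 6 comparisons. Choroid plexus markers summed in these Sham + VH libraries to between 210 and 6723 CPM in the hippocampus at 3 dpi and 84.9 and 7519 CPM at 29 dpi, with replicate 1 the highest each time, beside at most 3918 CPM in the thalamus and 119 CPM in the hypothalamus, and their part in these differences was not tested.

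**Figure D3:**
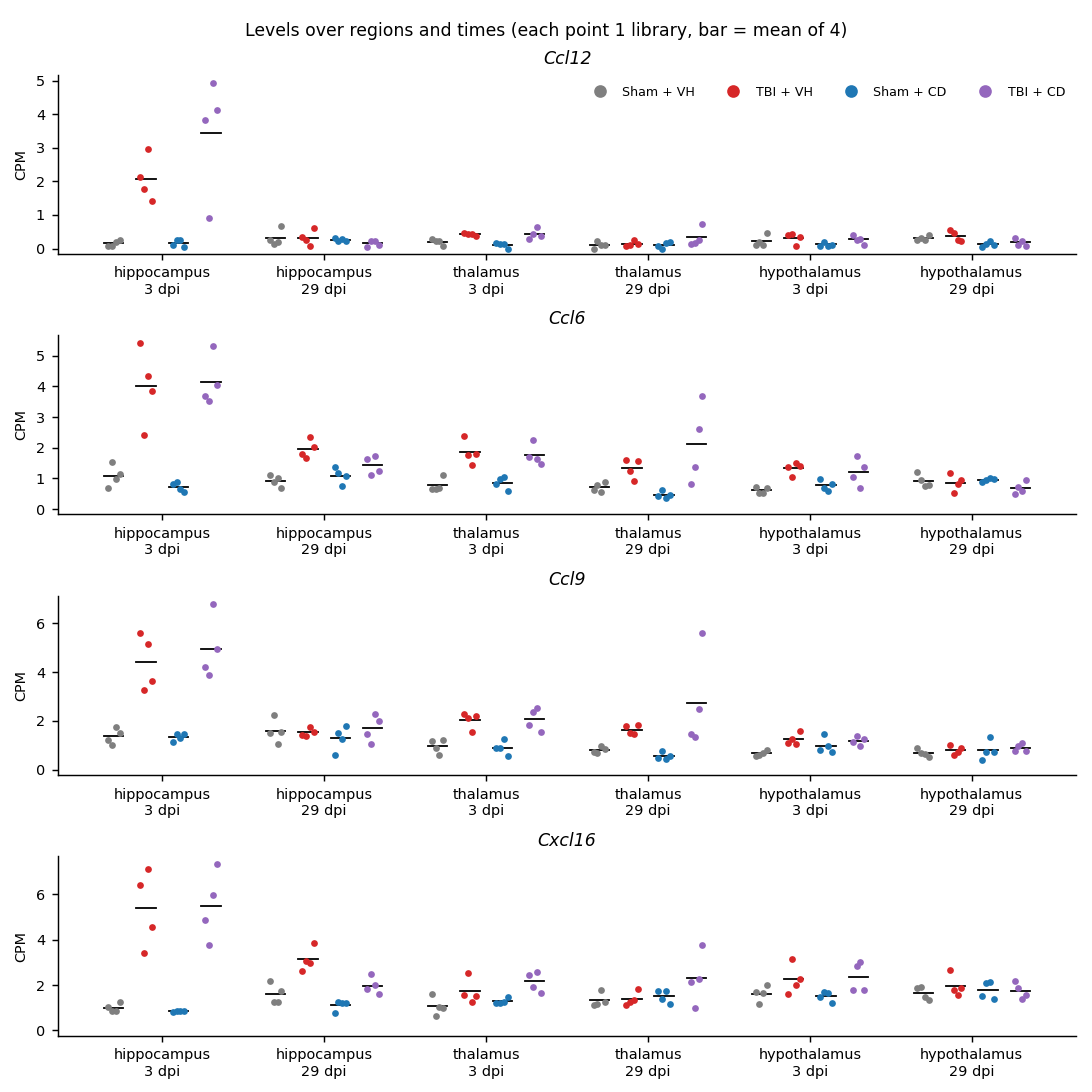
Level in CPM of Ccl12, Ccl6, Ccl9 and Cxcl16 in every library, by region and time, with the mean of each 4 libraries as a bar and the 4 groups in color. The injured hippocampus at 3 dpi reaches 4.93 CPM for Ccl12 and 7.33 CPM for Cxcl16, above all other region and time combinations.

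At 29 dpi in the hippocampus 1 of 4 tested genes was called with vehicle, beside 0.523% of all genes called higher. Ccl6 measured 1.11, 0.874, 1.02 and 0.674 CPM in Sham + VH and 1.80, 1.66, 2.36 and 2.02 CPM in TBI + VH. All injured libraries were higher, with a log2 fold change of 1.03 ± 0.22 (adjusted p = 0.0444). The call was near the threshold and was lost on leaving out any of 13 of the 16 libraries, with adjusted p of at most 0.134 and a log2 fold change between 0.93 and 1.13. It was also lost in edgeR without a filter (adjusted p = 0.0642), with a block for replicate number (0.0618) and with only the groups compared (0.141). Cxcl16 measured 2.2, 1.25, 1.26 and 1.73 CPM in Sham + VH and 2.64, 3.06, 2.97 and 3.84 CPM in TBI + VH. These did not overlap either, and the log2 fold change of 0.94 ± 0.21 had an edgeR adjusted p of 0.0548, whereas DESeq2 called it (adjusted p = 0.0274). Without Sham + VH replicate 1 it was 1.18 and was called (adjusted p = 0.0167). Choroid plexus markers summed to 7519, 225, 84.9 and 4282 CPM in these Sham + VH libraries and to 121, 2301, 59.5 and 390 CPM in TBI + VH. With the choroid plexus score in the model Ccl6 was no longer called (0.94, adjusted p = 0.0878) and Cxcl16 was (1.09, adjusted p = 0.0103).

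Ccl4 remained higher in most injured libraries at 29 dpi. It was 0.0983, 0, 0.105 and 0.0963 CPM in Sham + VH and 0.545, 0.0875, 0.472 and 0.499 CPM in TBI + VH, so that replicate 2 of the injured group lay among the sham values. Its log2 fold change was 2.2 ± 0.61 (adjusted p = 0.171) with vehicle and 1.84 ± 0.67 (adjusted p = 0.322) with candesartan. Ccl9, by contrast, had 0.03 ± 0.29 with vehicle and 0.29 ± 0.27 with candesartan. Ccl12 had 33 counts in TBI + VH against 23 in Sham + VH (ratio 1.48, 0.846 to 2.65; exact permutation p = 0.914), Ccl2 15 against 3 (5.17, 1.46 to 27.9; p = 0.257 by the same exact test) and Ccr1 23 against 19 (1.25, 0.653 to 2.43; exact permutation p = 0.229). No other ligand, receptor or signalling gene was called there at 29 dpi.

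With candesartan at 29 dpi edgeR and DESeq2 called 0 of 4 genes, and edgeR called 0.351% of all genes higher. Of the 4, 2 had an unadjusted p under 0.05, as had 1633 of all 16832 genes tested. Cxcl16 measured 0.763, 1.24, 1.21 and 1.19 CPM in Sham + CD and 1.85, 2.49, 1.99 and 1.60 CPM in TBI + CD, without overlap (log2 fold change 0.78 ± 0.21, adjusted p = 0.149). Ccl6 had 0.44 ± 0.22. In injured mice candesartan gave 0 of 4 called by either tool, with 0% of all genes called by edgeR. It gave 2 members at an unadjusted p under 0.05, beside 893 of 16832 genes. These 2 were Cxcl16, at -0.66 ± 0.20 (95% interval -1.09 to -0.23) with every TBI + CD library below every TBI + VH library, and Ccl6, at -0.46 ± 0.20 (-0.91 to -0.02). Both had an adjusted p of 0.882. Monocyte and macrophage markers also summed lower in these TBI + CD libraries, to between 63.2 and 80.0 CPM against 80.5 to 102 CPM in TBI + VH, and microglial markers to between 412 and 490 CPM against 487 to 537 CPM. The part of these cells in the differences was not tested. In sham mice Cxcl16 had -0.50 ± 0.22 (adjusted p = 0.941), also without overlap. It was the only member there with an unadjusted p under 0.05, beside 810 of 16832 genes. The interaction was -0.16 ± 0.30 for Cxcl16 and -0.58 ± 0.31 for Ccl6, and 0 of 4 genes reached an unadjusted p under 0.05 for it, with 0% of all genes called for either comparison.

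The hippocampal response of 3 genes was larger at 3 dpi than at 29 dpi in vehicle-treated mice, tested over both times together. The difference of log2 fold changes was 3.27 ± 0.84 for Ccl12 (adjusted p = 0.0215), 1.64 ± 0.37 for Ccl9 (adjusted p = 0.00838) and 1.47 ± 0.32 for Cxcl16 (adjusted p = 0.00687). That is 3 of 7 genes, beside 3.07% of all genes called in this direction. The Ccl12 call was lost in 5 of the 16 fits that each left out a library (2.86 to 3.29, adjusted p at most 0.0801), those without hippocampal Sham + VH replicates 1 and 2 or TBI + VH replicate 3 at 3 dpi, or Sham + VH replicates 1 and 4 at 29 dpi. Ccl6 had 0.86 ± 0.34 (adjusted p = 0.245), Ccr1 2.0 ± 0.81 (0.256), Ccl4 0.51 ± 0.94 (0.923) and Ccl2 0.58 ± 1.87 (0.966). In candesartan-treated mice 4 of 7 were called, beside 6.34%, namely Ccl12 at 5.05 ± 0.86, Ccl6 at 2.07 ± 0.35, Cxcl16 at 1.94 ± 0.33 and Ccl9 at 1.62 ± 0.36. Summed microglial markers in the hippocampus at 29 dpi ranged with vehicle from 365 to 409 CPM after sham and from 487 to 537 CPM after TBI. Monocyte and macrophage markers ranged from 46.7 to 55.7 and from 80.5 to 102 CPM. Choroid plexus markers were uneven between the hippocampal libraries at both times, and their part in the time differences was not tested.

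**Figure D4:**
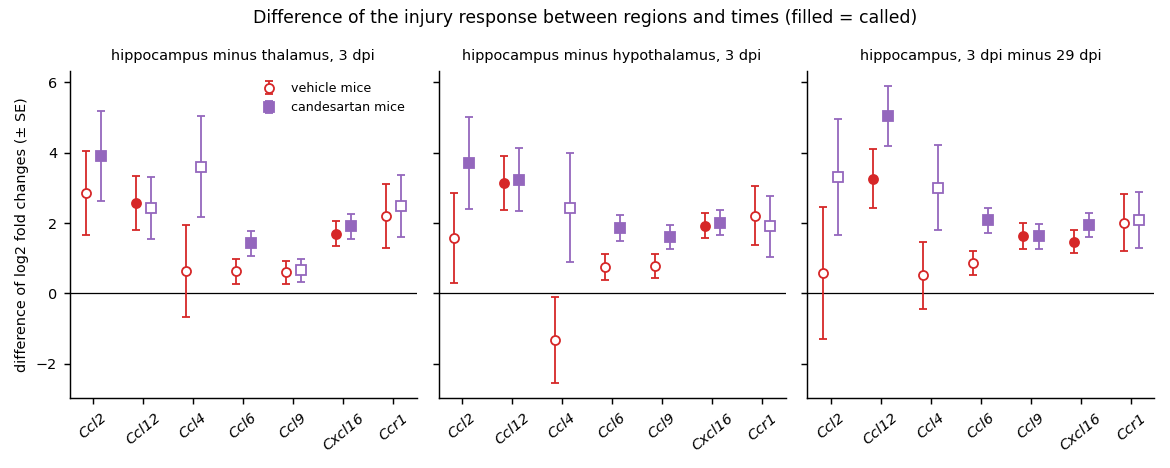
Difference (± SE) of the log2 fold change with injury between hippocampus and thalamus, hippocampus and hypothalamus, and 3 and 29 dpi in the hippocampus, circles for vehicle and squares for candesartan, filled where called. Ccl12 and Cxcl16 are called with vehicle in all 3 panels, by 2.57 to 3.27 and by 1.47 to 1.93, whereas Ccl2, Ccl4 and Ccr1 have wide errors.

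In the thalamus at 29 dpi Ccl6 and Ccl9 lay higher in every injured library than in every sham library with either treatment, but no gene was called by edgeR. With vehicle 0 of 3 genes were called by edgeR or DESeq2, and edgeR called 0% of all genes. Of the 3, 2 had an unadjusted p under 0.05, as had 419 of 16957 genes tested. Ccl6 had 0.90 ± 0.37 and Ccl9 1.02 ± 0.37, and Cxcl16 0.06 ± 0.31. With candesartan edgeR again called 0 of 3, with 0% of all genes called. At an unadjusted p under 0.05 there were 2 of 3, Ccl6 and Ccl9, beside 1549 of 16957 genes. DESeq2 called both, but its share over all genes is not given here. Ccl6 was 0.445, 0.611, 0.354 and 0.475 CPM in Sham + CD and 0.821, 1.37, 2.61 and 3.67 CPM in TBI + CD. Ccl9 was 0.485, 0.764, 0.460 and 0.584 CPM in Sham + CD and 1.45, 1.33, 2.50 and 5.58 CPM in TBI + CD. TBI + CD replicate 4 was the highest of its group for both, and the groups did not overlap. The log2 fold changes were 2.19 ± 0.40 for Ccl6 and 2.26 ± 0.39 for Ccl9 (edgeR adjusted p = 0.213 for both, DESeq2 0.00144 and 0.00043). Against Sham + VH in place of Sham + CD they were 1.55 (adjusted p = 0.469) and 1.72 (0.37), and with only the groups compared the edgeR adjusted p was 0.753 for both.

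Microglial markers also summed higher in every injured than in every sham library there, with vehicle from 306 to 315 CPM after sham and from 349 to 378 CPM after TBI, and with candesartan from 302 to 328 CPM and from 340 to 708 CPM, and their part in the result was not tested. Monocyte and macrophage markers overlapped, at 22.2 to 35.0 and 21.8 to 29.0 CPM with vehicle and 24.7 to 31.3 and 24.4 to 71.2 CPM with candesartan. TBI + CD replicate 4 held the most microglial and monocyte marker RNA, 708 and 71.2 CPM, beside 340 to 430 and 24.4 to 29.6 CPM in the other 3 TBI + CD libraries. Without it the log2 fold changes were 1.81 and 1.66 (adjusted p = 0.407 and 0.138), and without TBI + CD replicate 1 they were 2.45 and 2.46 and were called (adjusted p = 0.0086 and 0.0213). In injured thalamus at 29 dpi candesartan gave 0 of 3 genes by both tools and 0% of all genes by edgeR. At an unadjusted p under 0.05 candesartan gave 1, Cxcl16 at 0.71 ± 0.30, beside 380 of 16957 genes. In sham mice it gave 0 of 3 by both tools, 0 at an unadjusted p under 0.05 and 0% of all genes. Ccr1, untested there, had 6 counts in Sham + VH, 15 in TBI + VH (ratio 2.29, 0.838 to 7.19) and 14 in Sham + CD (2.68, 0.968 to 8.51), each with an exact permutation p of 0.0286 before adjustment. The interaction was 1.29 ± 0.55 for Ccl6 and 1.24 ± 0.54 for Ccl9 (95% intervals 0.09 to 2.48 and 0.06 to 2.42, adjusted p = 0.999 for both). Both tools called 0 of 3 for it, and edgeR 0% of all genes. These 2 genes had an unadjusted p under 0.05 for it, beside 577 of 16957 genes.

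The hypothalamus at 29 dpi showed no called change in these genes. With vehicle 0 of 3 were called by edgeR or DESeq2 and 0 had an unadjusted p under 0.05, beside 0.00583% of all genes called higher. The log2 fold changes were -0.04 ± 0.25 for Ccl6, 0.28 ± 0.29 for Ccl9 and 0.25 ± 0.21 for Cxcl16. With candesartan they were -0.46 ± 0.26, 0.20 ± 0.28 and -0.03 ± 0.21, again 0 of 3 at either threshold and 0% of all genes. Candesartan in injured mice, candesartan in sham mice and the interaction gave 0 of 3 genes by both tools, 0 at an unadjusted p under 0.05 and 0% of all genes. Of the untested genes there, Ccl5 had 6 counts in TBI + VH against 11 in Sham + VH (ratio 0.507, 0.154 to 1.50) and Ccl12 12 in Sham + CD against 30 in Sham + VH (0.454, 0.212 to 0.913), both with an exact permutation p of 0.0286. Over the 112 comparisons of untested genes outside the hippocampus at 3 dpi, 5 reached this smallest possible value, and the adjusted p by the same exact test was at least 0.641.

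Genes most like each tested member were read from the 16 hippocampal libraries at 3 dpi, as a description, by the Pearson correlation of log2 CPM with 14843 genes of at least 1 CPM on average. Ccl9 was most like Dock2 (r = 0.989) and Ncf1 (0.985), Ccl12 most like the Fc receptor gene Fcgr1 (0.978) and the interferon-induced Ifi204 (0.976), and Ccl6 most like Capns1 and Arpc1b (0.984 each). Cxcl16 was most like S100a13 and S100a6 (0.994 each), Ccr1 like Epsti1 (0.962) and Dock8 (0.948), Ccl4 like Ptpn18 (0.974) and Hrsp12 (0.971), and Ccl2 like Acss1 (0.975) and Lcat (0.968). The 16 libraries split into 8 injured and 8 sham ones, and any gene that changed with injury shares that split. Within the 8 injured libraries alone these correlations were 0.834 to 0.984.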

How the data were processed

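Gene-level RNA counts of 96 mouse brain libraries were analysed. Per the labels and the study's methods, the authors aligned paired 75-base reads to mm10 with MapSplice 2.2.1 and deposited raw HTSeq 0.9.1 counts per gene symbol; their own testing used DESeq2 1.16.1. The annotation, strand option and handling of reads with several matches are not given in the sources used here. In each table, 63 symbols occurred in 2 rows that differ by padding blanks, which were kept apart.

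Each region and time (16 libraries, 4 groups of 4) was fitted together in edgeR 4.0.16 (R 4.3.3) by the quasi-likelihood test, with TMM scaling, filterByExpr and Benjamini-Hochberg adjustment over all genes tested. Calls used the study's thresholds, an adjusted p under 0.05 with a log2 fold change beyond 0.32 in either direction. The SE is the log2 fold change divided by the root of F, and 95% intervals use 12 degrees of freedom. Overlap of groups was read for single genes only, and its share over all genes is not given here. CPM use TMM library sizes, and log2 CPM a prior count of 2. Region differences were fitted over the 48 libraries of a time and the time difference over 32 hippocampal libraries. Genes too rare to pass the filter were compared by pooled counts with exact intervals, which cover counting error only, and by exact permutation over libraries. The test was also run on simulated counts, and the outcome of that run is not given here.

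The members and gene lists were chosen with earlier results of these data known. Genes named beside the members were the 6 other ligands or receptors called with the largest log2 fold change in TBI + VH hippocampus at 3 dpi, other family genes called where at most 5 were, the members' receptors, the 2 most abundant genes of cell type lists and the 2 genes most correlated with each member. Some genes that this rule names are not reported here. Signalling genes, Pf4 and Cx3cl1 were named after their values were seen. Alternatives were DESeq2 1.42.0, RLE scaling, no filter, the adjusted p alone, a fit of the compared groups alone, a block for replicate number, a choroid plexus score, Sham + VH as reference, and leaving out each library. Candesartan-treated mice in the region and time differences, and leaving out each library there, were added after the data had been seen.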

Additional observations from a re-analysis of the deposited data

Results flagged for a closer look

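Of 96 groups of 4 libraries examined over the members that passed the filter, 7 held a library far from the other 3, where chance alone gives about 5%. In the hippocampus at 3 dpi, Ccl4 in Sham + CD replicate 4 was 0.0852 CPM (2 counts) with the other 3 at 0, and Ccl12 in TBI + CD replicate 2 was 0.907 CPM with the others at 3.82 to 4.93 CPM. In the thalamus at 3 dpi, Ccl6 in Sham + VH replicate 4 was 1.10 CPM beside 0.647 to 0.705 CPM, and Cxcl16 in Sham + CD replicate 4 was 1.47 CPM beside 1.21 to 1.25 CPM. In the hippocampus at 29 dpi, Ccl4 was at 0 in Sham + VH replicate 2 beside 0.0963 to 0.105 CPM, and at 0.0875 CPM (1 count) in TBI + VH replicate 2 beside 0.472 to 0.545 CPM. Cxcl16 in Sham + CD replicate 1 of that region and time was 0.763 CPM (5 counts) beside 1.19 to 1.24 CPM, in the shallowest library of the series.

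The response to injury was called different between regions or times, by the test of the difference itself in vehicle-treated mice, in 7 cases. The hippocampal log2 fold change exceeded the thalamic one by 2.57 for Ccl12 and 1.69 for Cxcl16 (2 of 7 genes, beside 3.51% of all genes). It exceeded the hypothalamic one by 3.14 for Ccl12 and 1.93 for Cxcl16 (2 of 7, beside 4.92%). The hippocampal log2 fold change at 3 dpi exceeded that at 29 dpi by 3.27 for Ccl12, 1.64 for Ccl9 and 1.47 for Cxcl16 (3 of 7, beside 3.07%). Of 16 fits that each left out a library, the Ccl12 call was lost in 12 against the thalamus, 1 against the hypothalamus and 5 between times.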

How the results depend on the processing

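Over 641 alternatives of 32 called values, 74 calls were lost and 0 changed direction, and 15 of 148 uncalled values gained a call, in 23 cases. The 7 calls in the candesartan arm of the hippocampus at 3 dpi held under every alternative run except that Ccl4 did not pass the filter when only the groups compared were fitted. DESeq2, and edgeR without a filter, called 8 members in each arm there. The shares of all genes called in these 2 settings are not given here, for this or any other comparison. With vehicle there, 4 of 7 were called with the choroid plexus score, and 4 when only the groups compared were fitted, since the other 3 then did not pass the filter; leaving out a library gave 6 to 7. RLE scaling and the adjusted p alone changed 0 of 39 counts. In this tally a shift as small as from 7 to 6 or from 2 to 3 was not taken as a change. DESeq2 called 2 genes in place of 1 in vehicle-treated thalamus at 3 dpi and hippocampus at 29 dpi (adding Cxcl16, adjusted p = 0.0274), 2 in place of 0 in candesartan-treated thalamus at 3 and at 29 dpi, and 0 in place of 1 for the Sham + VH levels between hippocampus and thalamus and between thalamus and hypothalamus at 3 dpi. Without a filter the count was 0 for vehicle-treated hippocampus at 29 dpi and for both of those Sham + VH levels, and 1 of 2 for the response of hippocampus minus thalamus. With only the groups compared it was 0 for vehicle-treated thalamus at 3 dpi and hippocampus at 29 dpi. Against Sham + VH, 1 gene was called in TBI + CD thalamus at 3 dpi (Ccl6, 1.17, adjusted p = 0.038). In candesartan-treated mice 5 in place of 2 genes were called for hippocampus minus hypothalamus, 3 in place of 2 for hippocampus minus thalamus and 4 in place of 3 for the time difference.

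Same-numbered libraries did not deviate together throughout (correlations from -0.617 to 0.715, with 4 to 15 of 24 above 0.1 in a region and time), and no label says that a number marks a shared mouse, so the numbers were not taken to pair the samples. Most were above 0.1 in the thalamus at 3 dpi, with a median of 0.129 beside -0.0264 for libraries of unlike number. With the replicate block the count was 0 for vehicle-treated thalamus at 3 dpi (Ccl6 1.23, adjusted p = 0.0616) and for vehicle-treated hippocampus at 29 dpi. It was 1 for the response of hippocampus minus thalamus (Ccl12 lost, 2.55, adjusted p = 0.056). For the Sham + VH level of hippocampus minus thalamus at 3 dpi it was 0. The block changed no other count beyond such small shifts as those set out above.

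Leaving out each library in turn gave 0 to 1 called in vehicle-treated thalamus at 3 dpi and hippocampus at 29 dpi, 0 to 2 in candesartan-treated thalamus at 29 dpi, 1 to 2 for the response of hippocampus minus thalamus and minus hypothalamus, and 2 to 3 for the time difference. For Sham + VH levels it gave 0 to 2 for hippocampus minus thalamus, 2 to 3 for hippocampus minus hypothalamus and 0 to 1 for thalamus minus hypothalamus at 3 dpi, and 1 to 3, 1 to 1 and 0 to 1 at 29 dpi. The call of Ccl9 between hippocampus and thalamus at 3 dpi was lost without hippocampal Sham + VH replicates 3 or 4 or thalamic replicates 2 or 3 (0.42 to 0.53). Its call between thalamus and hypothalamus was lost without thalamic replicates 1 or 4 or hypothalamic replicates 1, 2 or 3 (0.53 to 0.67). The call of Ccl12 at 29 dpi between hippocampus and thalamus was lost without hippocampal replicates 1 or 4 or thalamic replicates 1 or 4 (1.20 to 1.75), and between thalamus and hypothalamus without thalamic replicates 1, 3 or 4 or hypothalamic replicates 2 or 4 (-1.11 to -1.64). Of 216 group levels 1 moved by more than the replicate SD under scaling by total counts, and 52 of 216 ranks moved under the other gene length. Of the 14 most similar genes, 13 were no longer among the 2 most similar by Spearman correlation and 13 in injured libraries alone. Depth limits Ccl2, Ccl3, Ccl4, Ccl5 and Ccr1 most, and outside the hippocampus at 3 dpi a difference in them may not be detectable at these counts. The causes of these changes were not tested.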
